A study of Mus musculus with 24 samples.

Results

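Contracting muscle cells in culture were compared under low and moderate O2. In 1 % STIM, 6 libraries came from electrically stimulated C2C12 myotubes kept under 1 % O2, and in 5 % STIM, 6 libraries came from stimulated myotubes kept under 5 % O2. These 12 of the 24 libraries of the series were chosen by their labels and not by a measured value. The comparison itself was chosen with earlier results of these data known. C2C12 is a mouse myoblast line whose cells fuse into multinucleated, contractile myotubes once serum is reduced. All 24 cultures were WT cells labelled as day 5, had become myotubes under 5 % O2, and spent 2 h under 1 % or 5 % O2 in the gas phase, after which the STIM cultures received short tetanic bouts separated by rest. The other 12 libraries were unstimulated cultures under the same gases (1 % CTRL and 5 % CTRL). They enter only where the O2 response with stimulation is set beside that without it. The medium was replaced before and after stimulation, and whether unstimulated cultures were handled alike is not stated. Differences by stimulation therefore cannot be told apart from those of medium change or added time. The model holds 1 line without vessels, nerve or immune cells, and its reference gas is 5 % O2, not air. The labels number the cultures of a group but do not say whether they were differentiated separately, so p-values measure the spread between these samples, which may be technical.

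Cells sense O2 through enzymes that need it as a substrate. Prolyl hydroxylases (EGLN proteins) mark the α subunits of hypoxia-inducible factor (HIF) for removal by the VHL ubiquitin ligase, and when O2 falls the α subunits persist, pair with ARNT and bind short DNA motifs beside genes for glucose uptake, glycolysis, pH control, mitophagy and vessel growth. Contraction adds its own signals, through Ca2+, the energy state, stretch and released cytokines, and working muscle is known as a source of chemokines and growth factors as well as a consumer of O2.

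Promoter stretches are shown first for 4 of the 12 genes that rose most under 1 % O2, because they hold the letters that HIF or E2F proteins are known to bind. HIF dimers bind around ACGTG or GCGTG, and the E2F proteins that switch on S phase genes bind sites such as TTTCCCGC, TTTCGCGC and TTTGGCGC. Each motif was searched on both strands. The stretches span 100 bases, read 5′ to 3′ on the strand of the gene, from RefSeq (GRCm38.p6), at chr7:110627557-110627656 (plus strand) for Adm, chr8:45999851-45999950 (minus strand) for Ankrd37, chr2:11502091-11502190 (minus strand) for Pfkfb3 and chr11:98907991-98908090 (plus strand) for Cdc6. Capitals mark every match.
Adm: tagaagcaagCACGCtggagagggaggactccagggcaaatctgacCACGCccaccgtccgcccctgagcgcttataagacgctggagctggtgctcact
Ankrd37: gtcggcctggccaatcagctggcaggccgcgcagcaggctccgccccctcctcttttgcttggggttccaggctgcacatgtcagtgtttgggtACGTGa
Pfkfb3: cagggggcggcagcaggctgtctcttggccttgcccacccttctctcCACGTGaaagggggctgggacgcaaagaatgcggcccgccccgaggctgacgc
Cdc6: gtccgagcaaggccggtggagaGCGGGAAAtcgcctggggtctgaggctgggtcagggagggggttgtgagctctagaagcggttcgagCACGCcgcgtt
In Adm, GCGTG lies on the opposite strand (CACGC) with first bases 90 and 54 bases before the start site. Ankrd37 has ACGTG from 6 bases before its start, and Pfkfb3 has the palindrome CACGTG, which holds ACGTG once on each strand, from 53 bases before the start of 1 of its 2 windows. The Cdc6 stretch holds an E2F site on the opposite strand (GCGGGAAA) from 138 bases before the start and CACGC from 71 bases before it.

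The letters are common, so each match is a description and not a site. Over the 32851 RefSeq windows of 300 bases (250 before and 50 after each start), ACGTG was found in 19.6 %, GCGTG in 32.4 % and an E2F site in 1.85 %. Of the 14514 tested genes with a symbol, 10648 had a window, and their 13642 windows held these letters in 25.0 %, 49.3 % and 3.28 %. Windows of the glucose uptake and glycolysis list (23 of 25 genes, 40 windows) held ACGTG in 42.5 %, GCGTG in 52.5 % and no E2F site. Windows of the DNA replication and S phase list (33 of 40 genes, 39 windows) held an E2F site in 35.9 %, against 3.13 % of the 32 windows of the mitosis and G2/M list (30 of 36 genes). Among the other genes that rose most, Apln, Gpr35 and Trerf1 also had a window, and Slc2a3, Zfp395, Ppp1r3b, Kbtbd11 and Gpr162 did not. In the 250 bases before the start, Apln and Trerf1 held none of these letters. A window of Gpr35 held ACGTG 1 time and another held none of them.

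Libraries of the stimulated groups were of like depth, with 26677978 to 27504984 reads in 1 % STIM and 26706265 to 27194077 in 5 % STIM, while the size factors, inferred from the value of 1 read in each library, lay at 1.02 to 1.05 and 0.969 to 0.991. Of the stimulated libraries, 1 % STIM replicate 3 deviated most from the rest of its group (SD of the log2 deviation 0.185 over 10370 well-expressed genes, 0.104 to 0.175 in the other 11), and of the unstimulated ones 1 % CTRL replicate 1 stood apart (0.273). In both, longer transcripts were relatively higher, by 0.06 and 0.12 log2 per doubling of exon length. The myotube identity was plain: the 10 myotube markers (among them creatine kinase, desmin and embryonic myosin) summed to 389318 to 428244 normalized counts in 1 % STIM and 410423 to 472793 in 5 % STIM. The 10 markers of unfused myoblasts and reserve cells summed to 50848 to 55101 and 58586 to 62914. For 14 markers of other lineages the sums were 746 to 807 in 1 % STIM and 1207 to 1364 in 5 % STIM, of which the tubulin gene Tubb3 made 453 to 1085 and fell by 1.02, and the mesenchymal gene Pdgfra made 175 to 241. The macrophage gene Cd68 was at 27.6 to 54.6 and the epithelial gene Krt8 at 2.89 to 12.3, and 9 others stayed under 10 in all 12 libraries, among them the leukocyte gene Ptprc, the macrophage genes Adgre1 and Lyz2, the epithelial gene Epcam and the adipocyte gene Adipoq, which was at 0.

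Values are normalized counts, and where 3 are given they are the lowest, median and highest of the 6 libraries of a group. A log2 fold change is the difference of mean log2(normalized count + 1) between 1 % STIM and 5 % STIM, a scale that understates the change of low genes, given with its standard error (SE). Adjusted p-values are from limma, from a single fit of the 24 libraries with Benjamini-Hochberg adjustment over all 14541 genes tested, and a gene was called when that value was under 0.05. The libraries kept the strand, but the counting is not stated to have used it, so reads of a gene and of an antisense neighbour cannot be told apart. In bulk RNA, fewer cells of a type and less RNA per cell cannot be told apart.

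The O2 response of stimulated myotubes was broad and mostly shallow. Of the genes tested, 4210 (29.0 %) were higher and 4136 (28.4 %) lower under 1 % O2, and the 6 libraries of one group did not overlap those of the other for 5429 genes (37.3 %). Yet 68.2 % of the called genes moved by less than 0.5 on the log2 scale, and the median size of a called change was 0.33. A rise of more than 1 was seen for 371 genes (2.55 %) and a fall of that size for 281 (1.93 %). Beyond 2, 43 genes rose and 34 fell. The split depended on the scaling. With all libraries rescaled to the same total, which moves the median gene by 0.07, 5471 of 14532 genes were higher and 3178 lower. That made 63.3 % higher among the called genes, against 50.4 % with the values as deposited. List counts at that scaling are to be read beside these totals, not beside 29.0 % and 28.4 %. Of 12895 protein-coding genes 60.2 % were called, and of 1120 long non-coding ones 41.4 %.

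The genes that rose most encode secreted vasoactive peptides, glucose transport and its control, glycogen handling and the licensing of DNA replication. Adm, the vasodilator adrenomedullin (chromosome 7, 110627661 to 110629820), had 74.7, 83.2 and 108 normalized counts in 5 % STIM and 959.6, 1083 and 1152 in 1 % STIM. Every library under 1 % O2 was far above every library under 5 % O2, a log2 fold change of 3.61 (SE 0.08, adjusted p = 3.72e-27). Apln, the peptide ligand apelin (chromosome X, 48025146 to 48034853), went from 67.9, 77.2 and 97.1 to 588, 689.7 and 819, again without overlap (log2 fold change 3.10, SE 0.09, adjusted p = 3.71e-24). Slc2a3, the high-affinity glucose transporter GLUT3, was low in 5 % STIM with 3.06, 11.1 and 14.3 normalized counts and reached 101, 113 and 136 in 1 % STIM (log2 fold change 3.53, SE 0.22, adjusted p = 2.68e-14). The highest library of 5 % STIM stayed well under the lowest of 1 % STIM. Pfkfb3, which makes the strongest activator of phosphofructokinase, was the most abundant of the 12 and tightly grouped, at 634, 685 and 727 and 3499, 3685 and 3929 (log2 fold change 2.44, SE 0.04, adjusted p = 7.63e-30). Cdc6, which loads the replicative helicase onto origins, went from 52.6, 68.8 and 80.8 to 363, 375 and 428 (log2 fold change 2.499, SE 0.10, adjusted p = 3.72e-20). Ppp1r3b, a subunit that brings protein phosphatase 1 to glycogen, rose by 3.30. The remaining risers were Ankrd37 (3.56), the zinc finger gene Zfp395 (3.45), the orphan receptor genes Gpr35 (2.41) and Gpr162 (2.13), Trerf1 (2.39) and Kbtbd11 (2.19), all as log2 fold changes and all without overlap of the groups, which the rule for naming them required. Ankrd37 and Kbtbd11 are less certain, since 13.3 % and 23.6 % of their 75-base words of transcript sequence also occur in another gene.

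**Figure D1:**
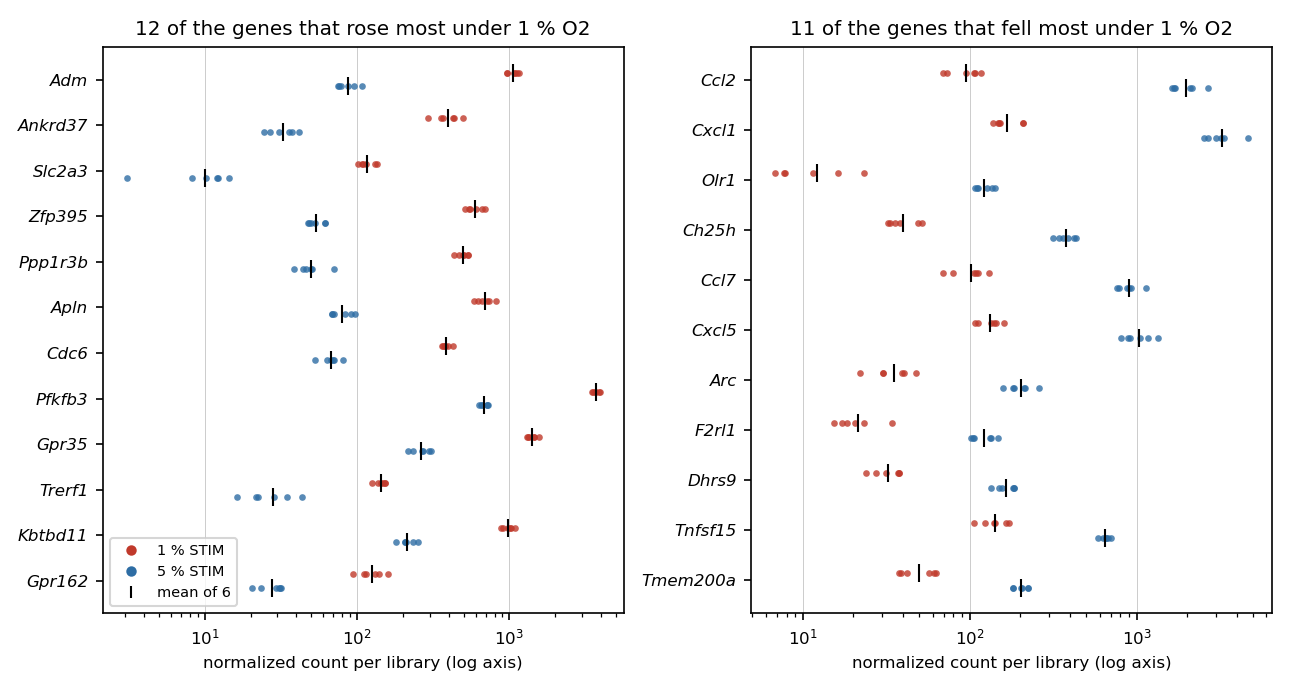
Normalized count per library on a log axis for the 12 genes that rose most (left) and 11 of the 12 that fell most (right) under 1 % O2 in stimulated myotubes, with 6 points per group (1 % STIM red, 5 % STIM blue) and a bar at the mean. The groups do not overlap for any of these genes, as the rule for naming them required, and the rows run from the largest change at the top to the smallest.

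The genes that fell most encode chemokines, receptors for inflammatory signals and an immediate early gene. Ccl2, which draws monocytes (chromosome 11, 82035571 to 82037453), had 1632, 1894 and 2680.2 normalized counts in 5 % STIM and 69.2, 100.5 and 116 in 1 % STIM (log2 fold change −4.38, SE 0.17, adjusted p = 1.27e-18). Cxcl1, which draws neutrophils (chromosome 5, 90891241 to 90893115), had 2526, 3112 and 4673 and 138, 151 and 209 (log2 fold change −4.26, SE 0.43, adjusted p = 2.23e-08). In both, the highest library under 1 % O2 lay far below the lowest under 5 % O2. Olr1, a receptor for oxidized low-density lipoprotein, fell by 3.34 to 6.82, 9.70 and 23.4 normalized counts in 1 % STIM, from 107, 119 and 141. Ch25h, which makes the oxysterol 25-hydroxycholesterol, fell by 3.22, from 317, 377 and 432 to 32.4, 36.9 and 51.6. F2rl1, a protease-activated receptor, fell by 2.48 and Tnfsf15, a cytokine of the tumor necrosis factor family, by 2.21. Arc, whose transcription follows Ca2+ signals, fell by 2.52 on the log2 scale, from 159, 198 and 261 to 21.9, 34.9 and 47.7. Without stimulation Arc was higher (mean 308 in 5 % CTRL against 202 in 5 % STIM) and fell by 2.19. Its O2 response was not called as different between the settings. Dhrs9 (−2.32) and Tmem200a (−2.04, 11.0 % of its words shared with another gene) were also among them, and Ccl7 and Cxcl5 are described with the other chemokines.

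Genes of O2 sensing itself moved modestly and on both sides of the pathway. Of 14 listed genes 13 were tested, 5 rose (Hif1a, Arnt, Vhl, Egln1 and Egln3) and 4 fell (Epas1, Hif1an, Siah1a and Cited2). These are 38.5 % and 30.8 % of the 13, beside 29.0 % and 28.4 % of all genes tested. The median log2 fold change was 0.09. Egln3, a prolyl hydroxylase and classic HIF target, rose most, from 3976, 4087 and 4180.4 to 8951, 9717 and 10356 normalized counts (log2 fold change 1.24, SE 0.03, adjusted p = 7.69e-27). The values were tight and far apart. Vhl, the ubiquitin ligase subunit that takes HIF down, went from 544 ± 44.6 (SD, n = 6) to 957 ± 93.1, a change of 0.81, and Egln1, the main prolyl hydroxylase, from 2202 ± 108 to 3301 ± 151, a change of 0.58. Egln2 did not pass the test, at 650.1 to 799 against 704 to 823. Hif1a transcript itself rose by 0.21 (4014 to 4613 against 4624 to 5173), Epas1, the second α subunit, was low and fell by 0.95 (24.5 to 37.5 against 11.8 to 23.1), and Arnt, the shared partner, rose by 0.09 with overlapping groups. Both brakes on HIF transcription fell: Hif1an, the asparagine hydroxylase, by 0.24 and Cited2, which competes for the coactivator, by 0.34.

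Most further HIF targets outside the metabolic lists rose: of 27 genes 19 were higher and 3 lower (Nt5e, Tgm2 and Wsb1), with a median of 0.37 against −0.00083 over all genes tested. Mxi1, an antagonist of MYC, had 394, 411 and 447 normalized counts in 5 % STIM and 1458, 1578 and 1763 in 1 % STIM (log2 fold change 1.93, SE 0.05, adjusted p = 6.05e-27), and Pkp2, a desmosome protein, rose by 1.04. Members of this list had been picked as HIF targets from general knowledge with earlier results of these data known, so their count describes them and is no independent test. The same limit holds for the counts and ranks of the other lists, which were also chosen with earlier results known.

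Most genes of glucose uptake and glycolysis rose. Of 25 genes 15 were higher and 4 lower, with a median of 0.19. Slc2a1, the basal glucose transporter GLUT1, had 2364, 2646 and 2712 normalized counts in 5 % STIM and 7872, 8369 and 8683 in 1 % STIM (log2 fold change 1.67, SE 0.03, adjusted p = 2.88e-29). The neuronal enolase gene Eno2 went from 675, 769.7 and 827 to 2295, 2377 and 2559.9 (log2 fold change 1.65, SE 0.05, adjusted p = 5.24e-25). Neither gene had overlapping groups. Ldha, lactate dehydrogenase A, was already abundant at 30122 ± 605 and rose by 0.28 to 36481 ± 1556. The 4 that fell were Slc2a4, Pfkm, Aldoc and Pgam2, of which the insulin-responsive transporter, the muscle phosphofructokinase and the muscle phosphoglycerate mutase mark differentiated muscle. These and other members named to account for a count of 5 or fewer were named after their values were seen.

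Lactate and acid export genes moved in both directions: of 10 genes tested 2 rose (Slc16a3 and Slc4a2) and 5 fell, among them Slc16a1, Car12, Slc4a7 and Ldhb. Slc16a3, the lactate exporter MCT4, went from 918, 1129 and 1212 to 2062, 2198 and 2612 (log2 fold change 1.03, SE 0.06, adjusted p = 1.48e-13), whereas Slc16a1, the carrier MCT1, fell by 0.58 from 2865, 3035 and 3126 to 1898, 2008 and 2162. At pyruvate entry into mitochondria, 2 of 14 genes rose (Pdk1 and Pdk3) and 4 fell (Pdk2, Pdk4, Dld and Pdp1). These are 14.3 % and 28.6 %, beside 29.0 % and 28.4 % of all genes tested. Pdk1, a kinase that closes pyruvate dehydrogenase, rose by 0.33 (3765 to 4112 against 4708 to 5071), Pdk4 fell by 0.48 (1405 to 1903 against 1108 to 1355) and Pdk2 fell by 0.35. In glycogen metabolism, 7 of 18 genes tested rose (38.9 %) and 4 fell (22.2 %), among them Pygm, Phka2 and Phkb, with a median of 0.05. Besides Ppp1r3b, a second glycogen-targeting phosphatase subunit, Ppp1r3c, rose from 56.2, 71.3 and 87.8 to 234, 246 and 253 (log2 fold change 1.80, SE 0.08, adjusted p = 5.32e-19).

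Mitochondrial genes moved in different directions by group. Among transcripts made from mitochondrial DNA no gene rose: 7 of 13 were lower and the median was −0.49. mt-Nd1, a complex I subunit, had 58373, 61102 and 65579.5 normalized counts in 5 % STIM and 38988, 42278 and 50007 in 1 % STIM (log2 fold change −0.52, SE 0.05, adjusted p = 3.41e-10). mt-Nd2 fell by 0.54 and mt-Cytb, of complex III, by 0.43, and for all 3 the highest library in 1 % STIM lay under the lowest in 5 % STIM. As a share of all normalized counts, the 13 transcripts made 1.70 to 2.09 % in 1 % STIM and 1.99 to 2.35 % in 5 % STIM, with overlapping ranges. Of 77 nuclear genes of the respiratory chain tested, 3 rose (Ndufab1, Ndufb2 and Cycs) and 4 fell (Ndufb6, Ndufs4, Atp5g2 and Atp5l), with a median of −0.09. Both shares, 3.90 % and 5.19 %, lay far under the 29.0 % and 28.4 % of all genes tested. Ndufb6, Atp5g2 and Cycs share 27.8 %, 35.8 % and 23.9 % of their words with another gene. The count of nuclear genes depended on the scaling, with 13 higher and 1 lower when libraries were rescaled to the same total. At that scaling 5471 of all 14532 genes were higher and 3178 lower, and the median of the 77 was −0.02. The mean log2 level of these 77 genes was 9.69 in 1 % STIM replicate 3, 9.88 to 10.1 in the rest of its group and 9.99 to 10.1 in 5 % STIM. Cox4i1, a subunit of cytochrome c oxidase, did not pass the test (3428 to 4019 against 3314 to 3838), and its hypoxic alternative Cox4i2 stayed at or under 1.03 normalized counts in all 12 libraries and was not tested.

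Mitophagy and hypoxic mitochondrial switches more often rose than fell, with 6 of 12 tested genes higher and 2 lower, among them Pink1. Ak4, a mitochondrial adenylate kinase, went from 642, 675 and 743 to 2331, 2588 and 2633 (log2 fold change 1.89, SE 0.04, adjusted p = 2.06e-29). Bnip3, a mitophagy receptor, rose by 0.79 and Higd1a, a modulator of cytochrome c oxidase, by 0.60, although 34.4 % and 21.95 % of their sequence words are shared with other genes. Among 17 regulators of mitochondrial biogenesis 5 rose (Ppargc1a, Ppargc1b, Tfb1m, Ssbp1 and Ppara) and 9 fell, or 5 and 5 with libraries rescaled to the same total. Ppargc1a, the coactivator PGC-1α that drives oxidative capacity after exercise, was low and rose from 20.3, 24.7 and 32.7 to 46.2, 63.0 and 89.5 (log2 fold change 1.27, SE 0.19, adjusted p = 1.03e-06). Its relative Pprc1, which follows growth signals, fell by 0.72 from 2717, 2937 and 3099.5 to 1650.4, 1792 and 1896, and the deacetylase gene Sirt1 fell by 0.51.

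Because the study asked about mitochondrial Ca2+, several uniporter genes are given whatever their result. Mcu, the pore, did not pass the test, at 2284, 2486 and 2509.8 in 5 % STIM and 2254, 2334 and 2433 in 1 % STIM (log2 fold change −0.07, SE 0.03, adjusted p = 0.0553). Micu2 (−0.03, SE 0.04) and the essential subunit gene Smdt1 (−0.03, SE 0.12) had overlapping groups and did not pass. Of the 12 genes of mitochondrial Ca2+ uptake and exchange, 2 rose (Letm1 and Vdac1) and 4 fell, among them Mcub, Micu3 and Mcur1. These are 16.7 % and 33.3 %, beside 29.0 % and 28.4 % of all genes tested. With libraries rescaled to the same total 4 rose and 3 fell. Letm1, an inner membrane cation exchanger, rose by 0.32.

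Angiogenic and vasoactive factors did not rise together. Of 25 genes tested 5 were higher (Vegfd, Angpt1, Adm, Edn1 and Stc1) and 15 lower, with a median of −0.40. Vegfa, the main endothelial growth factor and a classic HIF target, had 8701, 9176 and 9467 normalized counts in 5 % STIM and 8203, 8513 and 9210.1 in 1 % STIM. The groups overlapped, and the log2 fold change of −0.09 (SE 0.03, adjusted p = 0.0169) was no longer called with libraries rescaled to the same total (−0.02). Pdgfb, a platelet-derived growth factor that recruits pericytes, fell from 1092, 1256 and 1494 to 428, 454 and 477 (log2 fold change −1.48, SE 0.05, adjusted p = 2.08e-22). Fgf2, a fibroblast growth factor, went from 1298, 1358 and 1464 to 497, 590.3 and 606 (log2 fold change −1.25, SE 0.05, adjusted p = 3.21e-20), and Pdgfa fell by 1.37 with 18.7 % of its words shared with a neighbouring transcript. Angptl4, a secreted inhibitor of lipoprotein lipase, was abundant and fell by 0.91, from 10435, 10630.0 and 10920.1 to 5398, 5686 and 5867.

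Genes of O2-dependent demethylation and of collagen hydroxylation and crosslinking more often rose than fell. Of 22 histone and DNA demethylases tested, 12 were higher and 5 lower (Kdm3b, Jmjd1c, Kdm5a, Phf8 and Riox1), or 14 and 1 (Riox1) with libraries rescaled to the same total. Kdm3a, which removes methyl groups from histone H3 lysine 9, had 1864, 1955 and 2077 in 5 % STIM and 5463, 5713 and 5887 in 1 % STIM (log2 fold change 1.55, SE 0.04, adjusted p = 3.48e-27). Kdm5b, which acts on lysine 4, rose by 0.96 (1625 to 1737 against 3193 to 3371) and Tet1, which oxidizes 5-methylcytosine, by 1.04 (155 to 212 against 349.8 to 424). Riox1, a nucleolar hydroxylase, fell by 0.86, with 29.7 % of its words shared with another gene. Of 19 genes of collagen hydroxylation and crosslinking 8 rose and 3 fell (P4ha3, Lox and Loxl3). Ero1l, the oxidase that feeds disulfide bonds, rose by 0.81 (3457 to 3888 against 5994 to 6536), P4ha2, a collagen prolyl hydroxylase, by 0.65 and Plod2, a lysyl hydroxylase, by 0.51. Of 34 collagens and matrix proteins tested, 3 were higher (Lamb1, Nid1 and Mmp14) and 21 lower, or 5 and 14 with libraries rescaled to the same total, and the median was −0.15. Timp3, a metalloproteinase inhibitor and one of the most abundant transcripts, fell from 82884, 88444 and 93177 to 35659.7, 40882 and 43475 (log2 fold change −1.14, SE 0.05, adjusted p = 1.24e-16), and the fibrillar collagen gene Col11a1 fell by 0.86. Timp3 lies within Syn3 and shares 20.6 % of its words with it.

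**Figure D2:**
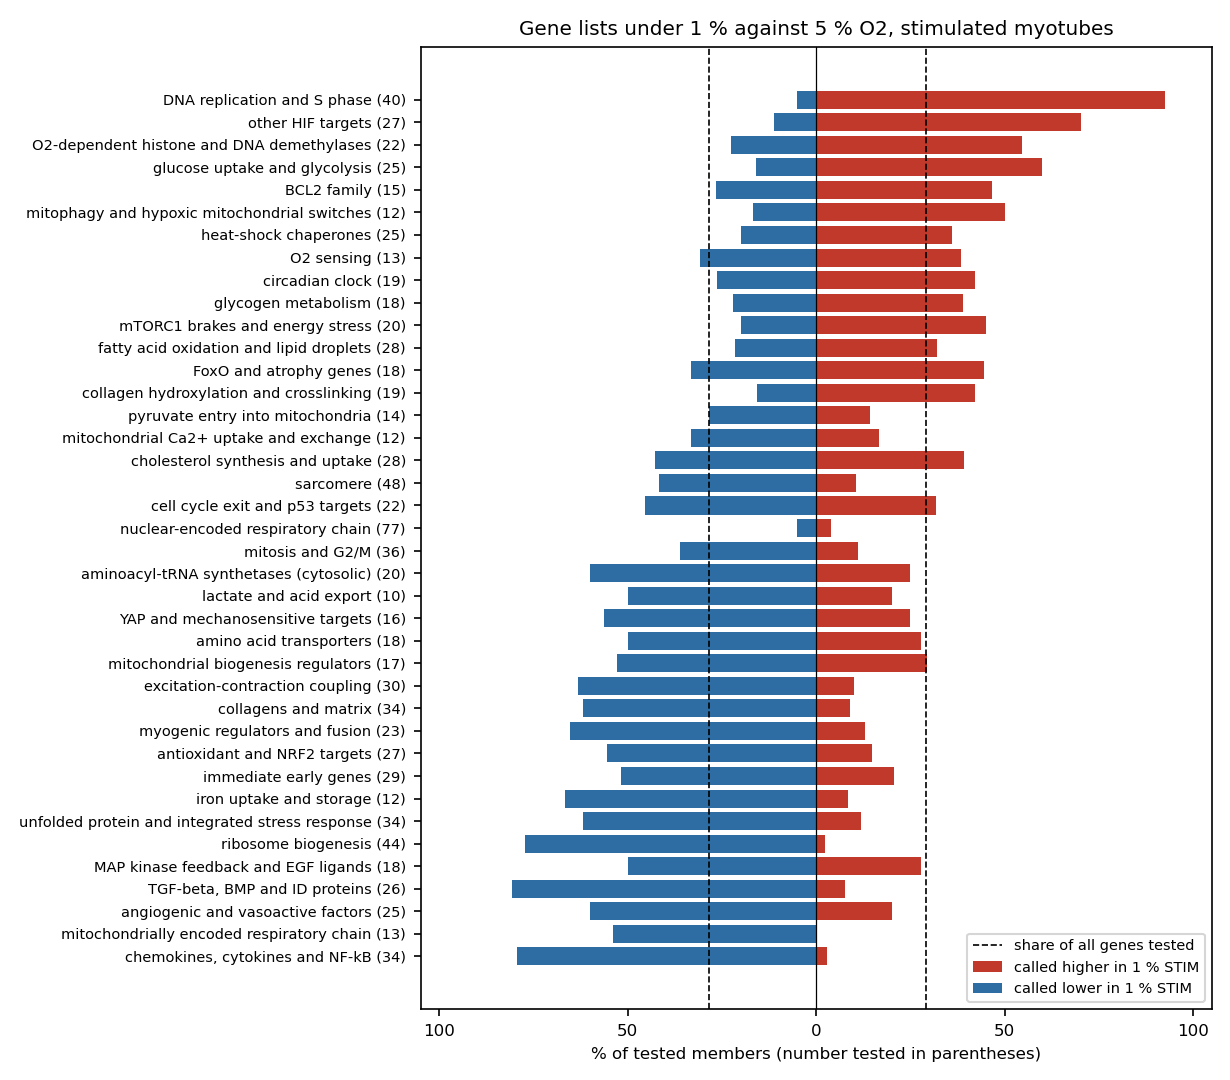
Share of the tested members of each gene list called higher (red, right) or lower (blue, left) in 1 % STIM than in 5 % STIM, with the number tested in parentheses and lists ordered by median log2 fold change. Dashed lines mark the shares over all genes tested, 29.0 % higher and 28.4 % lower, and the S phase list reaches furthest to the right while the chemokine and TGF-β lists reach furthest to the left.

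Genes of energy stress and FoxO activity moved in both directions. Of 20 mTORC1 brakes and energy-stress genes, 9 were higher and 4 lower (Deptor, Txnip, Rragd and Rheb), with a median of 0.02. Ddit4, also called REDD1, an inhibitor of mTORC1, had 432, 442 and 472 normalized counts in 5 % STIM and a wide spread of 826, 1174 and 1431 in 1 % STIM (log2 fold change 1.39, SE 0.14, adjusted p = 1.62e-08). Its paralog Ddit4l went from 29.6, 36.1 and 44.9 to 76.1, 110.3 and 142 (log2 fold change 1.52, SE 0.15, adjusted p = 9.33e-11), and Sesn1, a leucine-sensing brake, rose by 0.75. Of 18 FoxO and atrophy genes tested 8 rose (44.4 %) and 6 fell (33.3 %), with a median of 0.01. The groups did not overlap for any of the 6 that fell, nor for 4 of the 8 that rose. Such a lack of overlap was seen for 37.3 % of all genes tested. The largest decrease in this list exceeded the largest increase, although the members named here were all higher. Whether FoxO activity changed was not tested. Irs2, an insulin receptor substrate induced by FoxO proteins, rose by 1.44 (128 to 159.9 against 373 to 434), Pik3ip1, an inhibitor of phosphoinositide 3-kinase, by 1.15 (123 to 161 against 291 to 370.4) and Ulk1, the kinase that starts autophagy, by 0.68.

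Most genes of ribosome biogenesis fell. Of 44 ribosome biogenesis genes 34 were lower and 1 was higher (Npm1), with a median of −0.25. Ubtf, which activates RNA polymerase I, fell from 5509, 5606 and 5789 to 3185, 3317 and 3442 (log2 fold change −0.76, SE 0.03, adjusted p = 3.87e-22), and Wdr43, a factor of the small-subunit processome, fell by 0.61. Of 20 cytosolic aminoacyl-tRNA synthetases 5 rose (Dars, Hars, Kars, Qars and Vars) and 12 fell, or 5 and 10 with libraries rescaled to the same total, among them the threonine enzyme Tars (−0.65) and the cysteine enzyme Cars (−0.48). The unfolded protein and integrated stress response list went the same way, with 21 of 34 genes lower and 4 higher (Ddit3, Ppp1r15a, Edem1 and Eif2ak3), median −0.25. Atf4, the transcription factor at its centre, fell from 11724, 12539.8 and 12804 to 7593, 8100.0 and 8827 (log2 fold change −0.59, SE 0.05, adjusted p = 9.66e-12). Mthfd2, a mitochondrial folate enzyme and ATF4 target, fell by 0.67, Ern1, the IRE1α sensor, by 0.88, and Ppp1r15a, the phosphatase subunit GADD34 that restores translation, rose by 0.59. Among 18 amino acid transporters tested 5 rose (Slc38a1, Slc38a9, Slc43a1, Slc43a2 and Slc36a4) and 9 fell. Slc7a1, a cationic amino acid carrier, went from 8203, 8298 and 8486 to 3594, 3879 and 4212 (log2 fold change −1.11, SE 0.03, adjusted p = 4.67e-25). Slc7a11, which imports cystine, fell by 1.06 (1681 to 1922 against 799 to 920.4) and the glycine carrier Slc6a9 by 1.36 with 24.4 % of its words shared with another gene.

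Sterol and lipid genes moved in both directions. Of 28 cholesterol synthesis and uptake genes 11 rose and 12 fell, or 12 and 7 with libraries rescaled to the same total. Stard4, a sterol carrier, rose by 0.65 (1279 to 1424 against 1982 to 2219), whereas Insig1, which holds SREBP back, fell by 0.48 (3221 to 3523 against 2243 to 2646). Of 28 genes of fatty acid oxidation and lipid droplets 9 rose (32.1 %) and 6 fell (21.4 %), close to the 29.0 % and 28.4 % of all genes tested. Hilpda and G0s2, both inhibitors of triglyceride lipase, moved apart: Hilpda went from 219.6, 269 and 309 to 752, 817 and 894 (log2 fold change 1.60, SE 0.06, adjusted p = 1.23e-21) and G0s2 from 638, 665 and 767 to 216, 266 and 339 (log2 fold change −1.35, SE 0.13, adjusted p = 1.27e-08).

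DNA replication and S phase was the list with the largest share of members called in 1 direction. Of 40 genes 37 were higher, 2 were lower (E2f2 and the repressor gene E2f8), and the median log2 fold change was 0.86. Mcm5, a subunit of the replicative helicase, had 290.3, 342 and 393 normalized counts in 5 % STIM and 1064, 1173 and 1466 in 1 % STIM (log2 fold change 1.84, SE 0.09, adjusted p = 3.18e-14). Uhrf1, which maintains DNA methylation behind the fork, went from 292, 326 and 414 to 1305, 1427 and 1623 (log2 fold change 2.08, SE 0.09, adjusted p = 6.82e-15), and Chaf1b, a subunit of the histone chaperone that loads new nucleosomes, from 41.9, 55.0 and 65.6 to 203, 220.0 and 272 (log2 fold change 2.06, SE 0.11, adjusted p = 4.58e-17). For all 3, as for Cdc6, no library of 1 % STIM reached down to the highest of 5 % STIM. The mitosis and G2/M list did not follow: of 36 genes 4 rose (Aurkb, Bub1, Top2a and Nusap1), 13 fell and the median was −0.10, with 7 higher and 6 lower when libraries were rescaled to the same total. Ccnb1, cyclin B1, fell from 505, 536 and 606 to 293, 326 and 408 (log2 fold change −0.70, SE 0.08, adjusted p = 2.41e-09), Cenpa, the centromeric histone, by 0.74 and Ccnb2 by 0.57 with overlapping groups, while Top2a, the topoisomerase of replicating chromosomes, rose by 0.51. Ccnb1 shares 18.9 % of its words with another gene. Of 22 genes of cell cycle exit and p53 targets tested 7 rose (31.8 %) and 10 fell (45.5 %), with a median of −0.08. These shares are to be read beside 29.0 % and 28.4 % of all genes tested. The lowest log2 fold change in this list was −0.83. The members named by size of change were all higher: Ccng2, a cyclin of arrested cells, by 1.22 (1348 to 1545 against 3024 to 3773), Cdkn1b, the inhibitor p27, by 0.97 (996 to 1232 against 2007 to 2175), Rbl1, the pocket protein p107, by 0.97 and Zmat3, a p53 target, by 0.93.

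**Figure D3:**
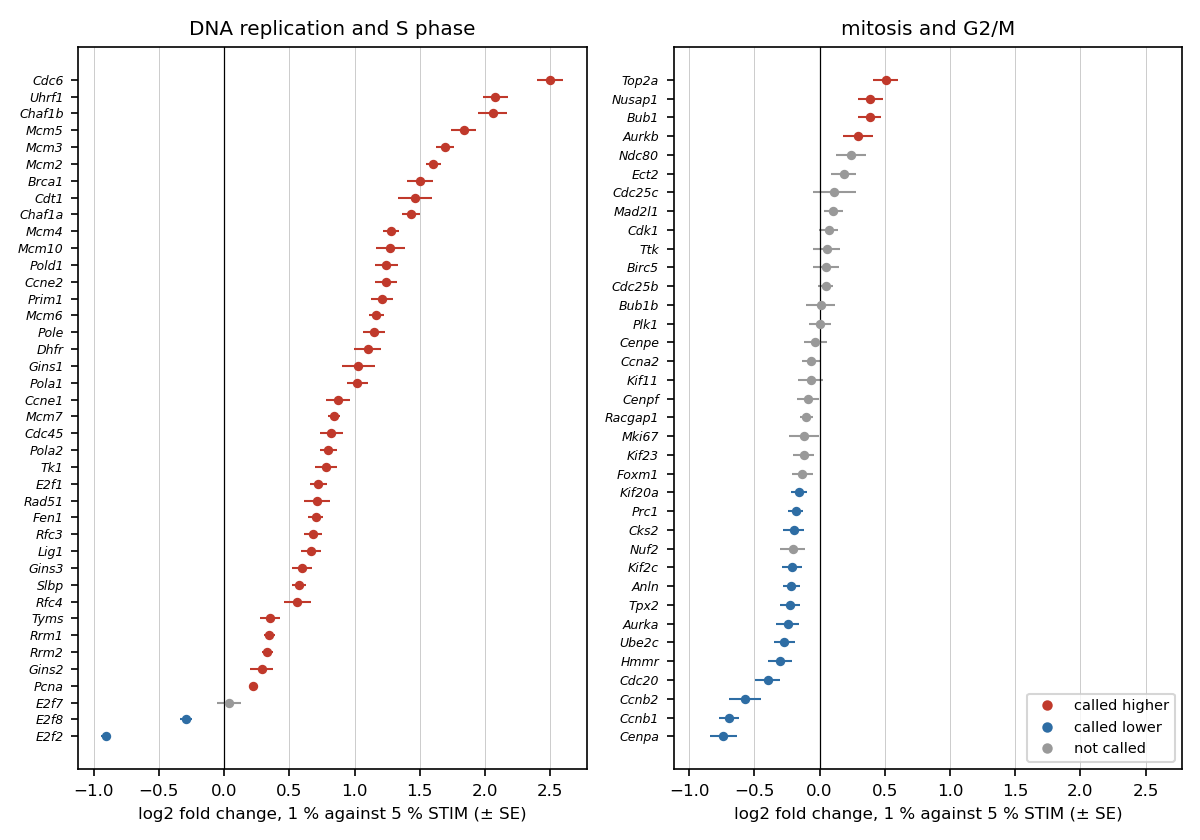
Log2 fold change (1 % STIM against 5 % STIM, bar ± SE) of each member of the DNA replication and S phase list (left, 40 genes) and of the mitosis and G2/M list (right, 36 genes), red where called higher, blue where called lower and grey where not called. On the left 37 points are red, with Cdc6 furthest to the right, and on the right the points lie on both sides of 0, with 4 red and 13 blue.

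Myogenic regulators fell more often than they rose, while muscle transcripts stayed abundant. Of 23 myogenic regulators and fusion genes 3 rose (Myf5, Mef2c and Six4) and 15 fell, or 5 and 11 with libraries rescaled to the same total, with a median of −0.15. Myod1, the determination factor, had 2506, 2658 and 3081 normalized counts in 5 % STIM and 1066, 1316 and 1531 in 1 % STIM (log2 fold change −1.05, SE 0.09, adjusted p = 2.12e-09). Myog, the differentiation factor, went from 18549, 21448 and 23167 to 11444, 12403 and 13362 (log2 fold change −0.76, SE 0.04, adjusted p = 1.85e-15). Of the 10 markers of unfused myoblasts and reserve cells 6 fell, with a median of −0.24, and 2 rose, Myf5 by 0.66 (165 to 218 against 289 to 327) and Pax7 by 0.72 (111 to 165 against 199.9 to 243). Of the 10 myotube markers 8 fell and none rose, or 5 and 1 with libraries rescaled to the same total, with a median of −0.18. Igf1, a growth factor of muscle, fell by 0.62. Of 48 sarcomere genes 5 rose (Myh1, Myh2, Myh4, Tpm3 and Lmod3) and 20 fell, with a median of −0.08. Myh3, embryonic myosin, remained among the most abundant transcripts, at 121581, 126433 and 132471 in 5 % STIM and 97210.5, 108256 and 117315 in 1 % STIM (log2 fold change −0.24, SE 0.04, adjusted p = 6.33e-07). Xirp1, an actin-binding protein of stressed sarcomeres, fell by 0.67, and Tcap, the titin cap, by 0.55 with overlapping groups. In excitation-contraction coupling 3 of 30 tested genes rose (Jph2, Asph and Nfatc4) and 19 fell, or 5 and 10 with libraries rescaled to the same total, among them the Ca2+-dependent kinase gene Camk2a (−0.35) and Nfatc1 (−0.53), a calcineurin-controlled transcription factor.

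Immediate early genes and growth factor feedback moved in both directions, with more members lower than higher. Of 29 immediate early genes tested, 15 fell and 6 rose, with a median of −0.20. Egr2 went from 777, 796 and 930.2 to 189, 218 and 248 (log2 fold change −1.93, SE 0.07, adjusted p = 2.48e-22) and Egr3 from 1810.0, 1827 and 2013 to 516, 601 and 682 (log2 fold change −1.65, SE 0.05, adjusted p = 1.95e-24), both zinc finger factors induced within minutes by growth signals. Junb, a subunit of the AP-1 factor, fell by 1.27 with a wide spread in 5 % STIM (1411, 2265 and 2762) and no overlap with 1 % STIM (659, 962 and 1098). Of 18 MAP kinase feedback genes and EGF ligands tested, 5 rose (Dusp1, Dusp4, Dusp10, Dusp16 and Spred2) and 9 fell, median −0.30. Errfi1, which inhibits the EGF receptor, went from 3008, 3361 and 3479.6 to 707, 884 and 949 (log2 fold change −1.95, SE 0.05, adjusted p = 2.26e-25). The ligands Ereg and Hbegf fell by 1.40 and 1.02, and the phosphatase gene Dusp5 by 1.70, with 19.7 % of its words shared with another gene.

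Most TGF-β genes were lower, and the mechanosensitive ones depended on the scaling. In the TGF-β, BMP and ID list 21 of 26 tested genes were lower and 2 higher (Smad9 and Bmp4), with a median of −0.34. Inhba, the subunit of activin A, had 17349, 19899.9 and 21339 in 5 % STIM and 6862, 7845 and 8224 in 1 % STIM (log2 fold change −1.36, SE 0.05, adjusted p = 3.57e-18), and Fst, follistatin, which binds activin, fell by 0.94 (4781 to 5998 against 2774 to 3058). Tgif1, a corepressor of SMAD signalling, fell by 0.90. Of 16 YAP and mechanosensitive targets 4 rose (Lats2, Axl, Crim1 and Ptpn14) and 9 fell, or 5 and 5 with libraries rescaled to the same total. Ccn2, a matrix protein and YAP target, went from 34281, 36966 and 39418 to 10229, 11721 and 13087 (log2 fold change −1.66, SE 0.06, adjusted p = 1.78e-16), with 14.6 % of its words shared with another gene, Ccn1 fell by 1.07 and the kinase gene Nuak2 by 1.03.

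Antioxidant and iron genes fell more often than they rose. Of 27 antioxidant and NRF2 targets 4 rose (G6pdx, Pgd, Gsr and Keap1) and 15 fell, or 5 and 10 with libraries rescaled to the same total. The members that moved most serve zinc rather than redox chemistry: Slc30a1, the zinc exporter, went from 1223, 1325 and 1446 to 319, 374 and 425 (log2 fold change −1.82, SE 0.05, adjusted p = 2.15e-24), and the metallothionein genes Mt1 and Mt2 fell by 0.87 and 1.04, the latter with 30.3 % of its words shared with another gene. Of 12 iron genes 8 fell and 1 rose, which was Tfrc, the transferrin receptor (4494 to 5164 against 7796 to 8973, log2 fold change 0.81), and rescaling to the same total left 5 lower and 2 higher. Of 25 heat-shock chaperones 9 were higher (36.0 %) and 5 lower (20.0 %; Dnaja1, Hspb7, Bag3, Hspa9 and Hsf1), shares not far from the 29.0 % and 28.4 % of all genes tested, with a median of 0.09. Dnajb1, a co-chaperone and marker of the heat-shock response, rose by 0.51 (1699 to 2001 against 2523 to 2759) and Hsph1 by 0.24. Of 15 BCL2 family genes 7 rose (46.7 %) and 4 fell (26.7 %), the latter being Mcl1, Pmaip1, Bid and Bcl2l13. The proapoptotic Bmf and Bbc3 rose by 1.02 and 0.59, Bbc3 with overlapping groups. In the circadian clock list 8 of 19 genes rose and 5 fell (Per2, Cry1, Cry2, Tef and Nr1d2), and the extremes lay far apart: the repressor gene Per2 went from 361, 371 and 397 to 135, 158 and 182 (log2 fold change −1.27, SE 0.07, adjusted p = 7.92e-17) and the activator gene Rora from 186, 198 and 226 to 448, 463 and 511 (log2 fold change 1.21, SE 0.07, adjusted p = 1e-16). Ciart, another repressor of the clock, rose by 1.10.

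Chemokines, cytokines and NF-κB genes made the list with the lowest median, −0.86: of 34 tested, 27 fell and 1 rose (Cxcl12). Ccl7 had 760.4, 893 and 1133 normalized counts in 5 % STIM and 69.3, 108 and 131 in 1 % STIM (log2 fold change −3.16, SE 0.14, adjusted p = 7.2e-19), and Cxcl5 had 802, 985 and 1343 and 107, 137 and 160.1 (log2 fold change −2.93, SE 0.19, adjusted p = 3.78e-14). Lif, a cytokine released by working muscle, went from 1377, 1428 and 1833 to 486, 519.6 and 617 (log2 fold change −1.49, SE 0.06, adjusted p = 5.05e-18). The NF-κB feedback genes fell too. Nfkbia, which encodes IκBα and is a direct NF-κB target, had 800.5 to 1056 in 5 % STIM and 338 to 391.6 in 1 % STIM (log2 fold change −1.23, SE 0.07, adjusted p = 3.13e-17), Bcl3, a nuclear IκB protein outside the list, fell by 1.63, Tnfaip3, the ubiquitin-editing enzyme A20, by 0.32, and the adhesion molecule gene Vcam1 by 0.65. Of the leukocyte and macrophage markers, Ptprc and Adgre1 did not pass 1.01 in any of the 12 libraries and Lyz2 reached 8.17, while Cd68 was at 27.6 to 48.5 in 5 % STIM and 27.6 to 54.6 in 1 % STIM and did not pass the test (log2 fold change 0.13, SE 0.17, adjusted p = 0.539).

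Set beside unstimulated cells, most of the response was shared in direction. Under 1 % O2 without stimulation 4271 genes were higher (29.4 %) and 4437 lower (30.5 %), and the comparisons share no library. Of the 8346 genes called with stimulation, 6685 were called in the same direction without it, 93 in the opposite direction and 1568 were not called. Whether a response differed was tested by the interaction, the O2 response with stimulation minus that without it. It was called for 1645 genes, 855 positive (5.88 %) and 790 negative (5.43 %), and of the 1568 genes called with stimulation alone it was called for 291. Without 1 % CTRL replicate 1, the library that stood apart, the interaction was called for 2316 genes.

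**Figure D4:**
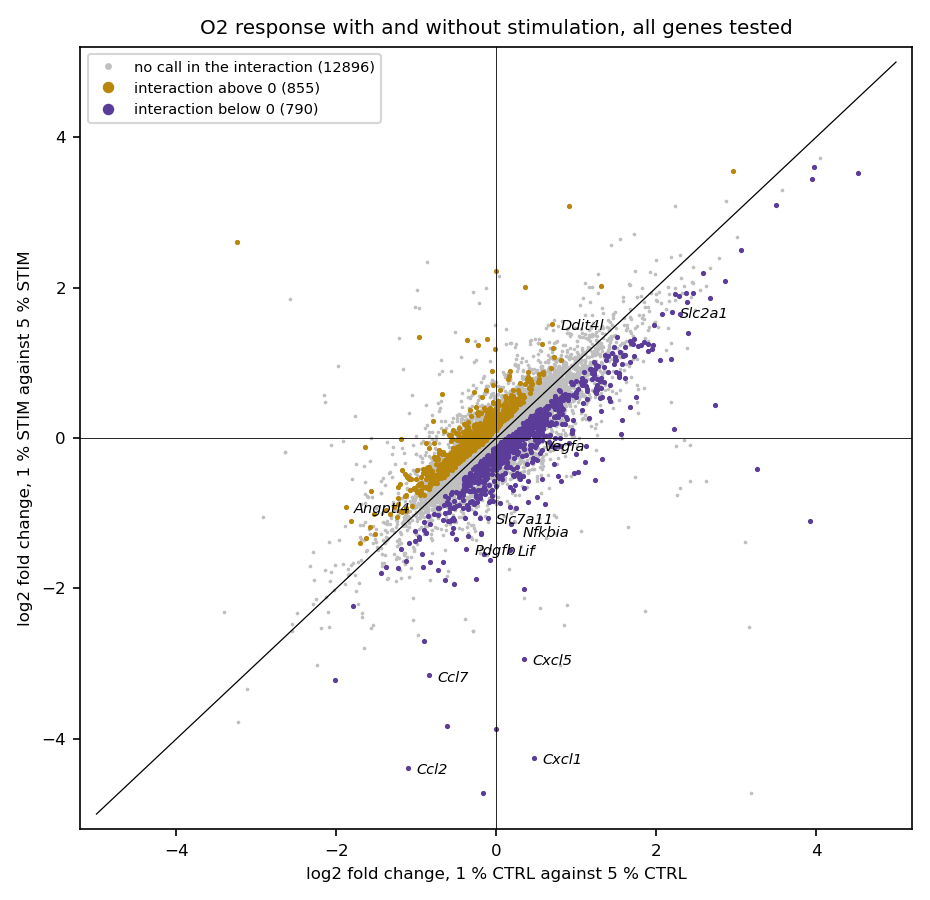
Log2 fold change under 1 % O2 in unstimulated (x axis) and stimulated (y axis) myotubes for the 14541 genes tested, with the line of equal response. Genes called in the interaction are ochre where positive (855) and violet where negative (790), the rest are grey (12896), and the chemokine genes Ccl2, Cxcl1, Ccl7 and Cxcl5 lie far under the line.

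Of the 8 genes named for the largest negative interactions, all but Bcl3 belong to the chemokine and NF-κB list. The interaction of that list was negative for 17 of 34 genes and positive for none (18 and 1 without 1 % CTRL replicate 1). Over all genes tested it was negative for 5.43 % and positive for 5.88 %. The median O2 response of the list was −0.86 with stimulation and −0.17 without. Cxcl1 was scarcely expressed without stimulation, with 0, 6.69 and 12.6 normalized counts in 5 % CTRL and 5.71, 7.30 and 13.6 in 1 % CTRL. Those ranges overlap, every stimulated library lies above them, and the interaction was −4.72 (SE 0.61, adjusted p = 1.73e-05). Ccl2 had 16.3, 19.1 and 31.4 in 5 % CTRL and 6.71, 9.08 and 13.6 in 1 % CTRL, with an interaction of −3.28 (SE 0.25, adjusted p = 1.15e-10). Even under 1 % O2, every stimulated library had more Ccl2 than every unstimulated one. Cxcl5 and Ccl7 had interactions of −3.28 and −2.32. Lif was at 824 to 1022 in 5 % CTRL and 962 to 1036 in 1 % CTRL, so that with stimulation it fell under 1 % O2 to levels below those of unstimulated cells, an interaction of −1.65 (SE 0.09, adjusted p = 8.79e-14). Nfkbia had an interaction of −1.46 and Bcl3 of −1.55. Tnfaip3 changed sign: it went from 836, 906 and 968 to 1884, 1928 and 2113 under 1 % O2 without stimulation and from 1342, 1468 and 1754 to 1091, 1196 and 1322 with it (interaction −1.43, SE 0.07, adjusted p = 3.08e-16).

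**Figure D5:**
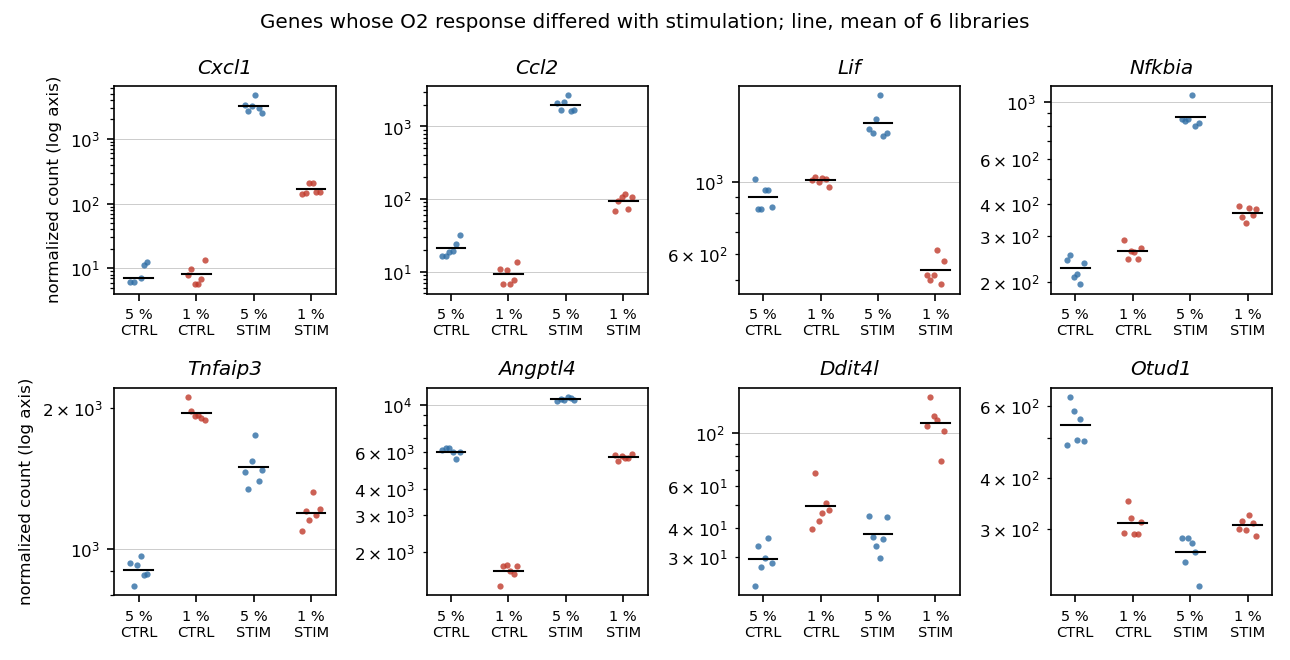
Normalized count per library (log axis) in the 4 groups for 8 genes called in the interaction, with 6 points per group and a line at the mean; 1 library of 5 % CTRL with 0 Cxcl1 cannot be drawn on a log axis. In 5 % STIM Cxcl1, Ccl2, Lif and Nfkbia sit above every other group, Tnfaip3 rises under 1 % O2 without stimulation and falls with it, and Angptl4, Ddit4l and Otud1 have positive interactions.

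Several HIF targets had a smaller rise with stimulation than without, by the same test. List counts are to be read beside the 5.43 % negative and 5.88 % positive interactions over all genes tested. The interaction was negative for 11 of 25 glycolysis genes, a smaller increase in 10 of them and values on opposite sides of 0 in Pfkp (−0.01 with stimulation and 0.29 without), and for 6 of 12 mitophagy and mitochondrial switch genes, all with a smaller increase. It was negative for 13 of 27 other HIF targets, of which 11 had a smaller increase and Selenbp1 and Wsb1 did not. For angiogenic factors a negative interaction mostly meant something else: of 11 among 25 genes, 2 had a smaller increase, 5 a larger decrease and 4 values on opposite sides of 0. Positive interactions numbered 0, 0, 2 (Ankrd37 and Zfp292) and 1 (Angptl4) in these lists. For Slc2a1 the O2 response was 1.67 with stimulation and 2.20 without (interaction −0.52, SE 0.05, adjusted p = 4.02e-10), and for Egln3 it was 1.24 and 1.71 (interaction −0.46, SE 0.04, adjusted p = 9.68e-10). Without stimulation Vegfa went from 7415, 8152 and 8439.7 to 10988, 11361 and 11948, a rise of 0.50 where stimulated cells had −0.09 (interaction −0.59, SE 0.05, adjusted p = 1.82e-11). Pdgfb fell by more with stimulation (−1.48) than without (−0.38, interaction −1.10), as did Egr3 (−1.65 and −0.82, interaction −0.82). Slc7a11 fell with stimulation and was not called without it (−1.06 and −0.11, interaction −0.96). In the S phase list 10 of 40 interactions were negative and 1 was positive (E2f2, not called without 1 % CTRL replicate 1), although the list rose in both settings, with medians of 0.86 and 1.17. In the cholesterol list 13 of 28 interactions were negative and none was positive.

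In other lists the called interactions were positive. Over all genes tested 5.88 % were positive and 5.43 % negative. In ribosome biogenesis 23 of 44 genes had a positive interaction and none a negative one, the median O2 response being −0.25 with stimulation and −0.44 without, and in 21 of the 23 the decrease was smaller with stimulation. Heat-shock chaperones had 8 positive interactions of 25 and no negative one, with medians of 0.09 and −0.18. Hsph1 was one of them (interaction 0.38, SE 0.05, adjusted p = 6.63e-06). Angptl4 fell from 5525, 6042 and 6242 to 1391, 1673 and 1739 without stimulation, a log2 fold change of −1.88 against −0.91 with it (interaction 0.97, SE 0.05, adjusted p = 1.07e-14). Pdk4 fell by less with stimulation (−0.48 against −1.14, interaction 0.66). Ddit4l rose by more (1.52 against 0.70, interaction 0.82), and Otud1, a deubiquitinase gene, fell without stimulation (−0.79) and rose with it (0.22, interaction 1.02). Nuclear respiratory genes had no called interaction among 77, but 20 negative ones and 1 positive one without 1 % CTRL replicate 1, so that the answer for this list rests on 1 library.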

How the data were processed

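RNA of 24 C2C12 cultures was sequenced from stranded mRNA libraries. The submitters' processing notes list FastQC 0.11.7, STAR 2.5.4b, RSEM 1.3.0 and GRCm38. The deposited signal is a gene count that the authors divided by a DESeq2 size factor per library, and RSEM ran with default parameters. A second deposited table holds the authors' fold changes and p-values and was not used. Dividing each library by its smallest value above 0, taken as 1 read, gave whole reads for 100 % of values (tolerance 0.01). Pairs of replicates within the stimulated groups differed beyond sampling noise (chi-square 3.27 to 12.4 per gene).

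Of 55487 genes, 14541 reached 10 normalized counts in 6 or more of the 24 libraries and were tested on log2(normalized count + 1) with limma 3.58.1 (R 4.3.3), in 1 fit of 4 groups with contrasts for the O2 response with and without stimulation and their difference. Whole reads were also tested with edgeR 4.0.16 (8425 genes called) and DESeq2 1.42.0, and summaries were made in Python 3.11.15. Counts were also simulated over 14541 genes, with changes put into the 1 % STIM libraries only. There 78 of 100 changes of 0.5 and 92 of 100 changes of 1 on the log2 scale were called, with 5 false calls. Far fewer genes were changed there than the 8346 called in the data, so recovery in the data may differ. Coordinates are GENCODE M21 (GRCm38), which held 55227 of the genes (99.5 %).

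Genes were described by a rule: the 12 that rose and the 12 that fell most without overlap of the groups, the leading called members of each list (4 or fewer), in both cases averaging 100 or more in one group, a set of O2, energy, mitochondrial Ca2+ and muscle genes whatever their result, and the 8 largest interactions in each direction. Not all are printed, and some genes of the rule and lists are not reported here. Members of small counts, and the interactions of Vegfa, Slc7a11, Pdk4, Egln3, Slc2a1, Pdgfb, Hsph1 and Egr3, were picked after their values were seen. The comparison, lists and genes were chosen with earlier results of these data known. Alternatives were another pseudocount, no filter, rescaling to the same total, a replicate block, the 12 stimulated libraries alone, both count tests, a stricter threshold and leaving out each library.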

Additional observations from a re-analysis of the deposited data

Results flagged for a closer look

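In a few genes 1 library stood far from the other 5 of its group, by more than Dixon's 95 % limit for the gap to the nearest library over the range. Chance alone gives about 1 such group in 20, and 296 groups were examined, of which 11 passed the limit. In 5 % STIM replicate 4, Cxcl1 (4673 normalized counts), Nfkbia (1056), Egr2 (930.2) and Bcl3 (159.5) were all higher than in the rest of the group. Replicate 1 of that group had more Cdkn1b (1232) and Ddit4 (471.8), replicate 3 more Slc7a11 (1922), replicate 5 less Mcu (2284), and replicate 6 less Slc2a1 (2364) and a separate value of 9330159F19Rik (1123). In 1 % STIM, replicate 3 had more Sesn1 (1629). The group means and fold changes given above include these libraries.

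The O2 response differed between stimulated and unstimulated myotubes, by the interaction in limma, for these genes. The interactions below 0 were Cxcl1 −4.72, Ccl2 −3.28, Cxcl5 −3.28, Ccl7 −2.32, Lif −1.65, Bcl3 −1.55, Nfkbia −1.46, Tnfaip3 −1.43, Pdgfb −1.10, Slc7a11 −0.96, Egr3 −0.82, Vegfa −0.59, Slc2a1 −0.52 and Egln3 −0.46 on the log2 scale. Those above 0 were Rpl36a-ps3 2.30, Otud1 1.02, Angptl4 0.97, Ddit4l 0.82, 9330159F19Rik 0.77, Vmn1r43 0.75, Tnfrsf19 0.72, Atcayos 0.71, Pdk4 0.66 and Hsph1 0.38. Rpl36a-ps3, a ribosomal protein pseudogene, shares 69.6 % of its sequence words with other genes and lost the interaction call in 13 of 24 fits that each left out 1 library. Atcayos overlaps Atcay on the other strand and shares 10.1 % of its words. Why these responses differ was not tested.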

How the results depend on the processing

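Called genes in stimulated cells numbered 8346, and 7018 to 8649 over the alternatives. Leaving out each library in turn gave 8075 to 8206 (higher 4065 to 4147, lower 3993 to 4059). The interaction, called for 1645 genes (855 positive, 790 negative), was less settled: an adjusted p under 0.01 left 830 (369 and 461), and leaving out a library gave 1343 to 2316 (664 to 1280 and 672 to 1036), highest without 1 % CTRL replicate 1. Replicate numbers did not pair the samples: deviations of same-numbered libraries correlated at −0.03 to 0.09, and 1 of 6 correlated best with its own number. With the replicate block 8350 genes were called (4209 higher, 4141 lower) and 1710 interactions (899 positive, 811 negative). Of the 148 genes given with a change of their own, 143 were called, and under pseudocount 10, the block, edgeR and the same total only Vegfa under the same total (−0.02) lost its call. Of 111 further genes named as called members of a list, 13 lost the call with the same total, all of them lower, and Kdm3b turned to 0.0063 and was not called under pseudocount 10 or the block either. Leaving out a library ended the call of Vegfa in 1 of 12 fits (−0.11 to −0.08) and of Rpl36a-ps3 in 4 of 12 (1.10 to 1.60). Of 84 list counts 21 moved by over 1.5 times with libraries rescaled to the same total, and 24 of 84 list interaction counts did so without 1 % CTRL replicate 1. The cause of these moves was not tested. The last alternatives for lists were chosen after seeing the data. Depth limits low genes such as Slc2a3 in 5 % STIM, where 1 read is worth about 1 normalized count.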
